A study of Mus musculus with 9 samples.

Results

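The genes Lcn2, Ltf, C3, Muc4, Padi2, Guca2b, Igf1, Greb1 and Myc, grouped as secretory and growth genes that estrogen is known to induce, were taken by symbol from a deposited table. They were 9 of its 15158 genes. The table holds FPKM (fragments mapped to a gene, relative to its length and to sequencing depth), for RNA of uterine luminal epithelium that was cut out by laser capture from mice on pregnancy day 4. Values are per gene length, so levels can be set side by side between genes. All 9 genes reached 1 FPKM in at least 3 libraries and so entered the tests.

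There were 3 genotypes with 3 libraries each. The controls, Wnt7acre, had cre recombinase and no receptor allele. The ePRAoe mice (Wnt7acre/+PgrALsL/+) carried in addition an allele for isoform A of the progesterone receptor, and the ePRBoe mice (Wnt7acre/+PgrBLsL/+) one for isoform B, each kept silent by a stop cassette until cre removes it. All 3 groups therefore carried this cre driver, in which cre is under control of Wnt7a, a gene of the uterine epithelium. All females had been raised to 8 weeks on normal chow and then mated. The labels name no estrogen treatment and no hormone measurement, and they number the replicates without naming animals, so p-values measure the spread between these libraries.

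Estrogen acts in the uterus through estrogen receptor alpha, which binds DNA at response elements and also acts through other factors and through growth factors made in the stroma. In the epithelium it drives secretion, innate defence and cell division. Progesterone, acting through the progesterone receptor, opposes the division and much of this secretion before the embryo attaches. The genes followed here fall into secreted defence proteins (Lcn2, Ltf, C3), surface and secretory genes of the epithelium (Muc4, Guca2b, Padi2) and growth genes (Igf1, Greb1, Myc).

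The windows of 250 bases before the transcription start of Ltf, C3 and Guca2b are printed because these genes fell in ePRAoe and their windows hold the core motif of the estrogen receptor. They come from RefSeq on GRCm38.p6 and read 5′ to 3′ on the strand of the gene, with each GGTCA or its reverse TGACC in capitals.
Ltf, chr9:111019042-111019291 (plus strand): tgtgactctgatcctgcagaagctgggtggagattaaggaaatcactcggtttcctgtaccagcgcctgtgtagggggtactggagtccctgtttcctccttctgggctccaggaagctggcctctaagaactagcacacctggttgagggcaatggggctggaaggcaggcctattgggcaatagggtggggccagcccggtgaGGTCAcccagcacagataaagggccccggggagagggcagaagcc
C3, chr17:57228137-57228386 (minus strand): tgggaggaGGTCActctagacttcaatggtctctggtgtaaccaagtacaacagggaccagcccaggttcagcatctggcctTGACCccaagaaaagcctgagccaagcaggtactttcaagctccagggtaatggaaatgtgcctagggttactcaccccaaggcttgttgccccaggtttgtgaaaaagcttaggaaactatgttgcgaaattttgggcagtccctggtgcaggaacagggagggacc
Guca2b, chr4:119658946-119659195 (minus strand): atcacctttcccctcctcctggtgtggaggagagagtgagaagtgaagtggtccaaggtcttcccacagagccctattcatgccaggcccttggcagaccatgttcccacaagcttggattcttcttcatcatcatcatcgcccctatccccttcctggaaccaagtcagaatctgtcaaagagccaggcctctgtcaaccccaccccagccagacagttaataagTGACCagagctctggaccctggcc

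Windows were found for 8 of the 9 genes. The core motif GGTCA, searched on both strands, lay at -45 to -41 from the start of Ltf, at -242 to -238 and -168 to -164 in C3, and at -24 to -20 in Guca2b. It also lay in the windows of Igf1 and Greb1 and not in those of Lcn2, Muc4 and Padi2. Of 32851 such windows, 35.2% hold it. The full element GGTCA, any 3 bases, TGACC was in none of the 8 genes' windows, also with 1 mismatch allowed, against 0.0639% and 0.715% of all windows. The progesterone receptor motif TGTTCT (16.1% of all windows) was in none of them either. AP-1 TGANTCA was found for Igf1 (6.75% of all windows) and Sp1 GGGCGG for Lcn2 and Padi2 (32.7%). A match is a run of letters, not a measured binding site, and the absence of one covers this window alone.

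The values of a library summed to between 272213 and 314010 FPKM, with 11074 to 12300 genes at 1 FPKM or more. Pgr, the targeted gene, read 17.4, 3.82 and 6.62 FPKM in Wnt7acre, 41.7, 49.5 and 42.8 in ePRAoe and 38.1, 38.3 and 45.9 in ePRBoe, and it rose by 2.38 and 2.27 on the log2 scale (limma, adjusted p = 0.00483 and 0.0168). The 15 luminal epithelium markers summed, for Wnt7acre, ePRAoe and ePRBoe in this order, to 2330 to 2690, 2000 to 2970 and 2380 to 2570 FPKM. The 18 stroma markers summed to 114 to 148, 280 to 467 and 483 to 646 FPKM, and 13 of them rose in ePRAoe and 16 in ePRBoe against Wnt7acre. Pan-leukocyte markers summed to 96.7 to 173, 76 to 89.1 and 250 to 290 FPKM. In such bulk samples, fewer cells of a type and less RNA per cell cannot be told apart. Libraries came from 3 sequencing runs. Run 1 held Wnt7acre replicate 3, ePRAoe replicate 2 and all ePRBoe libraries, run 2 held Wnt7acre replicate 2 and ePRAoe replicate 3, and run 3 held replicate 1 of both, so ePRBoe meets each other genotype within a run through 1 library.

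The first question was which of these genes changed when isoform A was overexpressed. In ePRAoe, Lcn2, Ltf, C3, Muc4, Guca2b and Myc fell against Wnt7acre, Igf1 rose, and Padi2 and Greb1 did not pass the test. These were 6 genes lower and 1 higher of 9, by limma on log2(FPKM + 1) with Benjamini-Hochberg adjustment over all 12347 tested genes. Of all tested genes 16.2% were called, 8.98% as lower and 7.2% as higher. The median log2 difference of the 9 genes was -1.94, beside -0.03 for all genes. The 9 genes were chosen with earlier results of these data known, so setting them beside all genes is a description and not a test. For the same 7 genes the 2 genotypes did not overlap, as for 28.9% of all genes (16.2% lower, 12.6% higher). In an exact two-sided permutation test of 1 gene each of the 7 gave p = 0.1, the smallest that 3 against 3 allows. Without the run term 4 were lower and 1 higher, since Lcn2 and Ltf no longer passed. The 9 uterine gland markers summed to 19.6 to 47.9 FPKM (Wnt7acre), 4.53 to 16 (ePRAoe) and 13 to 74.5 (ePRBoe), but they did not move as one. Much of the sum in Wnt7acre was Spink1, at 24.1, 41.2 and 14.8 FPKM. Of 4 gland markers that could be tested 1 rose and 1 fell in ePRAoe, both named after their values were seen. Spink1 fell by 3.97 (adjusted p = 0.0058) and Aldh1a1 rose by 1.58 (adjusted p = 0.00616). None of the gland markers was at 0 in every library, and their part in these falls was not tested.

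With isoform B, Padi2 and Igf1 rose against Wnt7acre, so 2 of 9 were higher and 0 lower, with 5 of 9 at an unadjusted limma p under 0.05. With median-of-ratios scaling 2 were higher and 2 lower, the added calls being Muc4 (-1.14, adjusted p = 0.0455) and Myc (-1.36, 0.0459). With quantile normalization 2 were higher and 1 (Muc4) lower, and without the run term 1 (Igf1) was higher and 1 (Muc4) lower. Of all genes 8.89% were called, 6.41% as higher and 2.48% as lower. Of the calls over all genes 72.1% were higher, and 56.4% with median-of-ratios scaling, which moved the median of all genes from 0.10 to -0.03. Muc4, Guca2b and Myc lay lower and Igf1 higher in all ePRBoe than in any Wnt7acre library, as did 39.8% of all genes (16.3% lower, 23.5% higher). The median of the 9 genes was -0.27, beside 0.1 for all genes. In the direct comparison of the overexpressing genotypes, Lcn2 and Guca2b were higher in ePRBoe than in ePRAoe, so 2 of 9 were called higher and 0 lower. Of all genes 0.324% were called, 0.316% as higher and 0.0081% as lower. Lcn2, Ltf, Guca2b and Igf1 had all ePRBoe libraries above all ePRAoe libraries, as did 16.8% of all genes, with 5.8% the other way round and 22.6% in either direction. The median of the 9 was 2.27, beside 0.15 for all genes. The 3 comparisons share libraries, so the differences of a gene are not independent of each other.

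**Figure D1:**
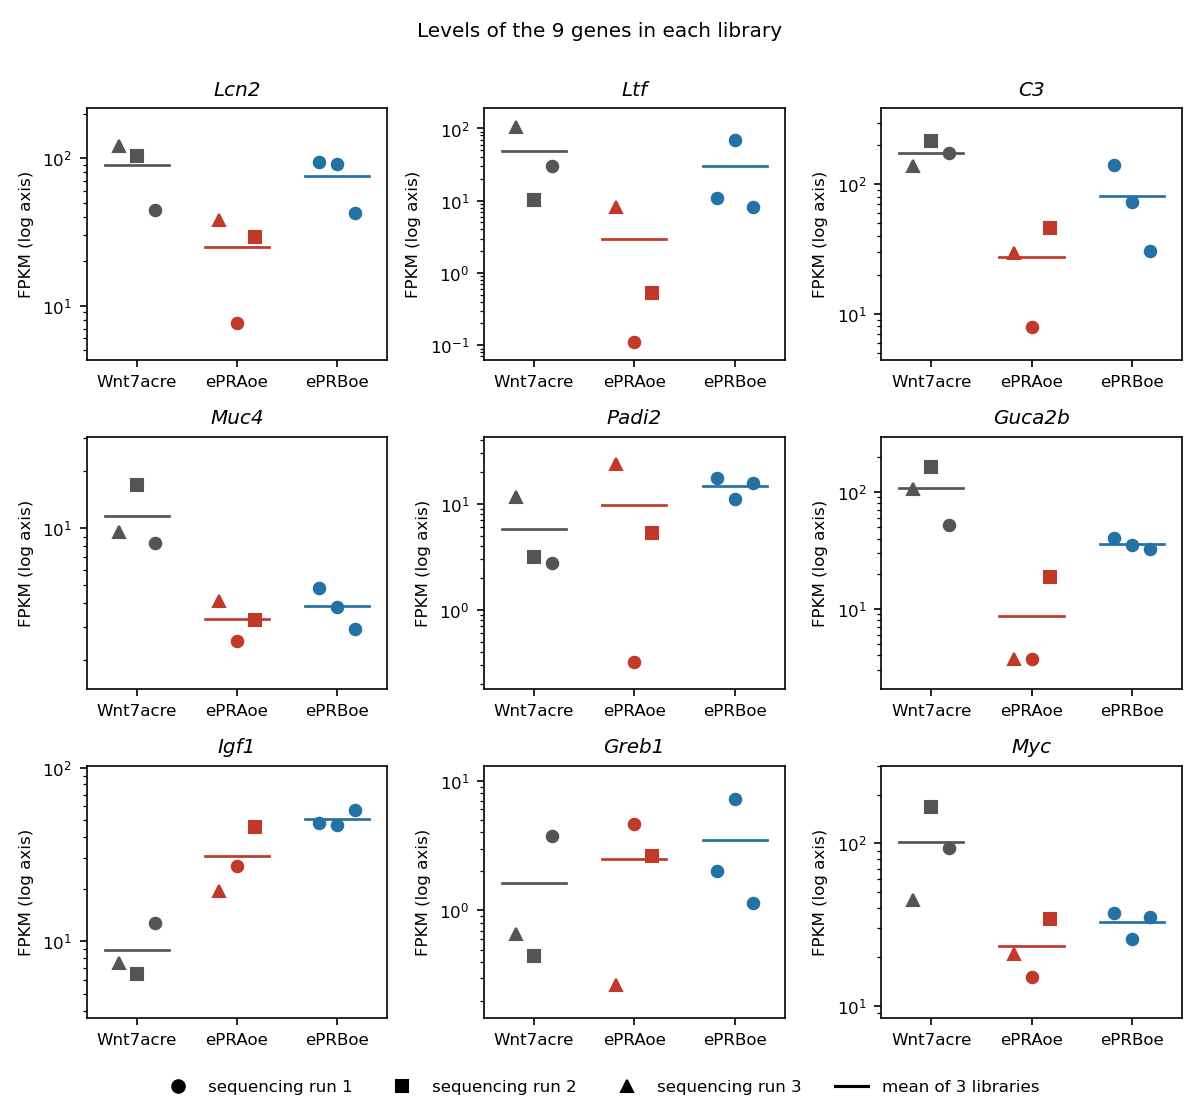
FPKM of each of the 9 genes (log axis) in the 3 libraries of Wnt7acre, ePRAoe and ePRBoe, with the symbol for the sequencing run and a line at the mean. Lcn2, Ltf, C3, Muc4, Guca2b and Myc lie lower in all 3 ePRAoe libraries than in any Wnt7acre library, and Igf1 lies higher.

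Lcn2 (ENSMUSG00000026822.14; mm10 chr2:32384633-32388252, minus strand) encodes lipocalin 2, which withholds iron from bacteria by binding their siderophores. It read 121, 103 and 44.8 FPKM in Wnt7acre, 38.1, 7.66 and 29.1 in ePRAoe and 94.4, 91.5 and 42.5 in ePRBoe (replicates 1, 2 and 3). Each ePRAoe library was below every library of the other genotypes, and Wnt7acre and ePRBoe overlapped. ePRAoe lay below Wnt7acre, with a log2 difference of -1.94 (SE 0.31, adjusted p = 0.00757), or 3.84-fold lower. It did not pass once Wnt7acre replicate 3 (adjusted p = 0.0572) or ePRAoe replicate 2 (0.0573) was dropped, nor without the run term (-1.94, adjusted p = 0.0623). ePRBoe differed from Wnt7acre by 0.90 (SE 0.38, adjusted p = 0.191) and from ePRAoe by 2.84 (SE 0.38, adjusted p = 0.0381), or 7.15-fold.

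Without a term for the run the Lcn2 difference of ePRBoe from ePRAoe was 1.74 with an adjusted p of 0.21, and that from Wnt7acre turned to -0.20. Within run 1 the 3 ePRBoe libraries averaged 3.07 above the ePRAoe library and 0.67 above the Wnt7acre library on the log2 scale. The call against ePRAoe did not pass either with no filter (2.84, adjusted p = 0.0529), median-of-ratios scaling (2.65, 0.0515), quantile normalization (2.68, 0.069) or TPM (2.86, 0.059). It was also lost without any 1 of 6 libraries. For Wnt7acre the adjusted p was 0.0765 without replicate 2 and 0.0621 without replicate 3. For ePRAoe it was 0.524 without replicate 2 and 0.0798 without replicate 3, and for ePRBoe 0.144 without replicate 1 and 0.127 without replicate 2. Without ePRBoe replicate 3, the lowest ePRBoe library, Lcn2 was also called higher in ePRBoe than in Wnt7acre, by 1.27 (adjusted p = 0.0421).

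Ltf (ENSMUSG00000032496.7; mm10 chr9:111019271-111042767, plus strand) encodes lactoferrin, an iron-binding antimicrobial protein of secretions and of neutrophil granules and a classic estrogen marker of the mouse uterus. It read 106, 10.3 and 30.7 FPKM in Wnt7acre, 8.1, 0.111 and 0.527 in ePRAoe and 11, 70.2 and 8.12 in ePRBoe. The ePRAoe libraries lay below all others, 2 of them under 1 FPKM, but the libraries of 1 genotype differed by up to 73-fold. ePRAoe differed from Wnt7acre by -3.76 (SE 0.74, adjusted p = 0.0155), or 13.6-fold on the log2(FPKM + 1) scale.

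That Ltf call rested on the Wnt7acre and ePRAoe libraries of runs 1 and 2. The adjusted p rose to 0.056 and 0.097 when replicate 2 or 3 of Wnt7acre was dropped, to 0.097 and 0.0545 when replicate 2 or 3 of ePRAoe was, and to 0.0506 with no run term. ePRBoe lay 3.62 above ePRAoe (SE 0.91, adjusted p = 0.119), and ePRBoe and Wnt7acre overlapped, with a difference of -0.14 and an interval of -2.25 to 1.98. The Wnt7acre library with the most Ltf, replicate 1, also had the most of several neutrophil markers. S100a8, S100a9 and Cxcr2 read 24.4, 33.5 and 4.55 FPKM there and at most 0.776, 0.726 and 0.325 elsewhere. Ly6g, the only neutrophil marker that could be tested, read 1.9 FPKM there and 1.98 in ePRAoe replicate 1. That library also had the most Cxcl15, a gland marker, and Muc5b, a mucin, both named after their values were seen (8.47 and 8.41 FPKM, at most 0.608 and 0.071 elsewhere). Of 12 listed neutrophil markers, the 6 with values summed to 67.9 FPKM in that library. They summed to 1.6 and 1.72 in the other Wnt7acre libraries, 1.15 to 3.98 in ePRAoe and 2.21 to 2.66 in ePRBoe. None of the 6 was at 0 in every library. Lcn2 was also highest in Wnt7acre replicate 1, at 121 FPKM, beside 103 and 44.8 in the other Wnt7acre libraries. The part of neutrophils in the levels of Ltf and Lcn2 was not tested. Without Wnt7acre replicate 1 the Ltf difference of ePRAoe from Wnt7acre was -3.86 (adjusted p = 0.035).

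C3 (ENSMUSG00000024164.15; mm10 chr17:57203970-57228136, minus strand) encodes the central protein of complement, which the uterine epithelium secretes. It read 139, 215 and 175 FPKM in Wnt7acre, 29.6, 7.86 and 45.6 in ePRAoe and 141, 73.4 and 30.6 in ePRBoe. The Wnt7acre libraries lay close together and above all of ePRAoe, and ePRBoe overlapped both. The difference of ePRAoe was -2.91 (SE 0.59, adjusted p = 0.0167), or 7.5-fold lower. Dropping replicate 2 or 3 of Wnt7acre ended the call (-3.25 and -2.2, adjusted p = 0.0579 and 0.0934), as did dropping replicate 2 or 3 of ePRAoe (-2.2 and -3.25, adjusted p = 0.0936 and 0.0571). ePRBoe differed from Wnt7acre by -0.64 (SE 0.72, adjusted p = 0.629) and from ePRAoe by 2.27 (SE 0.72, adjusted p = 0.173).

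Muc4 (ENSMUSG00000079620.13; mm10 chr16:32735886-32782391, plus strand) encodes a large mucin of the epithelial surface that can bind the receptor ERBB2. It read 9.59, 16.9 and 8.37 FPKM in Wnt7acre, 4.13, 2.52 and 3.24 in ePRAoe and 4.79, 3.82 and 2.93 in ePRBoe. Both overexpressing genotypes lay below all Wnt7acre libraries and overlapped each other. Muc4 fell in ePRAoe by 1.51 on the log2 scale (SE 0.24, adjusted p = 0.0069), or 2.85-fold, and remained called without any 1 library. ePRBoe differed from Wnt7acre by -1.02 (SE 0.29), or 2.03-fold, which did not pass (adjusted p = 0.0722) in the fit with the run and passed without the run term (-1.34, adjusted p = 0.0126) or when replicate 1 of Wnt7acre (-1.14, 0.0411) or of ePRAoe (-1.14, 0.0395) was dropped. ePRBoe and ePRAoe differed by 0.49, with an interval of -0.18 to 1.17.

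Guca2b (ENSMUSG00000032978.14; mm10 chr4:119656607-119658954, minus strand) encodes uroguanylin, a secreted peptide that activates guanylate cyclase C and regulates salt and water transport. It read 107, 165 and 51.8 FPKM in Wnt7acre, 3.68, 3.67 and 18.8 in ePRAoe and 40.1, 35.1 and 32.4 in ePRBoe. The 3 genotypes did not overlap: Wnt7acre was highest, ePRBoe in between and ePRAoe lowest. Guca2b fell in ePRAoe by 3.7 (SE 0.25, adjusted p = 0.00105), or 13-fold, and this call held without any 1 library, with values from -4.01 to -3.29. ePRBoe lay 0.62 under Wnt7acre by the fit (log2 difference -0.62, SE 0.31, adjusted p = 0.258), and 16.3% of all genes likewise had all ePRBoe libraries below all Wnt7acre libraries.

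Guca2b was 3.08 higher in ePRBoe than in ePRAoe (SE 0.31, adjusted p = 0.0224), or 8.43-fold. The difference did not pass without replicate 3 of Wnt7acre (adjusted p = 0.0596), replicate 2 of ePRAoe (0.428) or replicates 1 and 2 of ePRBoe, each dropped alone (0.123 and 0.0798). Nor did it pass without the run term, where the difference was 2.28 (adjusted p = 0.126). Within run 1 the difference was 2.98. The difference between the isoforms thus lay between 2.28 and 3.31 in every fit of all 9 libraries that was run.

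Padi2 (ENSMUSG00000028927.6; mm10 chr4:140906344-140952586, plus strand) encodes a peptidylarginine deiminase, an enzyme that turns arginine in proteins, histones included, into citrulline. It read 11.5, 3.13 and 2.75 FPKM in Wnt7acre, 23.8, 0.32 and 5.34 in ePRAoe and 17.7, 11.2 and 15.8 in ePRBoe. The ePRAoe libraries spanned 74.4-fold and enclosed all the others, and ePRBoe overlapped Wnt7acre through 1 library of each. ePRAoe differed from Wnt7acre by 0.03 with an interval of -0.99 to 1.05, and its sign differed between runs: -1.51 in run 1, 0.62 in run 2 and 0.99 in run 3.

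Padi2 rose in ePRBoe by 2.83 against Wnt7acre (SE 0.54, adjusted p = 0.021), or 7.1-fold. The call was lost without ePRBoe replicate 1 (adjusted p = 0.0571) or ePRBoe replicate 3 (0.061), and without the run term, where the difference was 1.43 (adjusted p = 0.321). Without Wnt7acre replicate 3 the value was 4.37 (adjusted p = 0.0241) and without ePRAoe replicate 2 it was 2.06 (0.0264). Run 1, the run of all ePRBoe libraries, held the lowest Wnt7acre and the lowest ePRAoe library for Padi2. Against ePRAoe the difference was 2.8 (SE 0.54) and did not pass (adjusted p = 0.0775). It passed when replicate 1 of Wnt7acre (3.03, adjusted p = 0.0362) or of ePRAoe (3.03, 0.0367), or replicate 3 of Wnt7acre (3.57, 0.0417), was dropped.

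**Figure D2:**
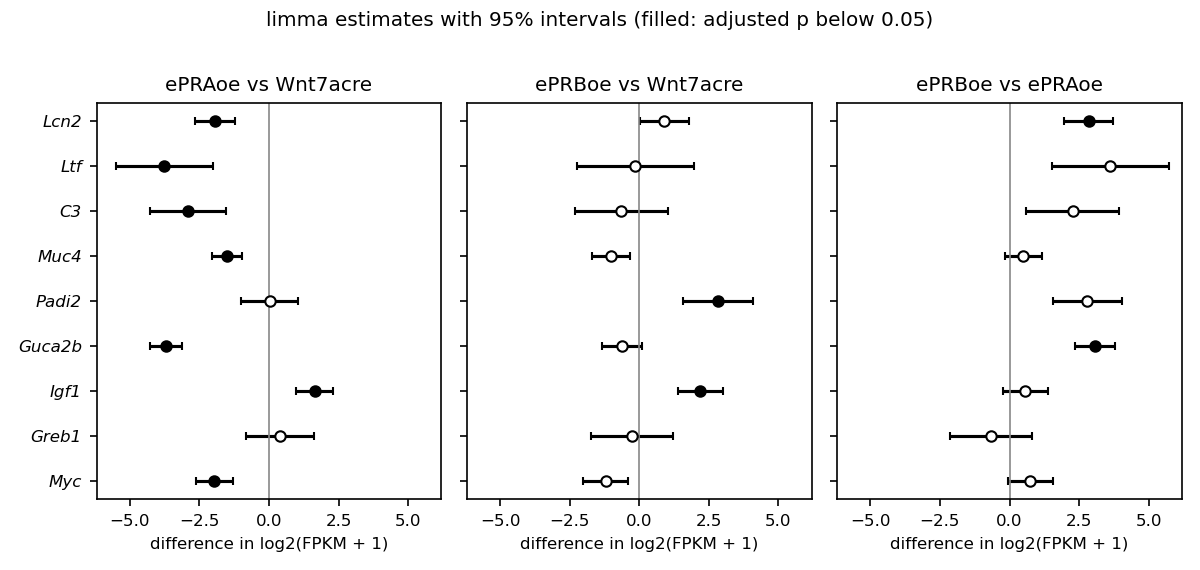
Difference in log2(FPKM + 1) for the 9 genes in each of the 3 comparisons, from limma with genotype and sequencing run, with 95% intervals. Filled points have an adjusted p below the threshold of 0.05: 7 in ePRAoe against Wnt7acre, 2 in ePRBoe against Wnt7acre (Padi2 and Igf1) and 2 in ePRBoe against ePRAoe (Lcn2 and Guca2b).

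Igf1 (ENSMUSG00000020053.18; mm10 chr10:87858265-87937042, plus strand) encodes insulin-like growth factor 1, which in the uterus comes mainly from the stroma and drives division of the epithelium. It read 7.49, 6.52 and 12.8 FPKM in Wnt7acre, 19.6, 27 and 45.7 in ePRAoe and 48, 46.6 and 56.9 in ePRBoe. The 3 genotypes did not overlap, with ePRBoe highest. Igf1 rose in ePRAoe by 1.64 (SE 0.29, adjusted p = 0.00996), or 3.12-fold, and remained called without any 1 library. It rose in ePRBoe by 2.2 (SE 0.35, adjusted p = 0.0124), or 4.61-fold, a call lost without ePRAoe replicate 2 (1.89, adjusted p = 0.0525). With Wnt7acre replicate 3 dropped that value was 2.83. ePRBoe and ePRAoe differed by 0.56, with an interval of -0.25 to 1.37 (adjusted p = 0.413).

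Igf1 was the one of the 9 genes to rise in both overexpressing genotypes, and the stroma markers moved with it. Per 100 FPKM of summed stroma markers, Igf1 was 6.73 ± 1.88 FPKM in Wnt7acre, 8.61 ± 1.44 in ePRAoe and 8.9 ± 1 in ePRBoe (SD, n = 3). The single libraries gave 6.57, 4.94 and 8.68 in Wnt7acre, 7, 9.03 and 9.79 in ePRAoe and 9.94, 7.94 and 8.82 in ePRBoe, so this ratio overlapped between Wnt7acre and both other genotypes. No stroma marker was at 0 in every library. The part of the stroma in the change of Igf1 was not tested.

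**Figure D3:**
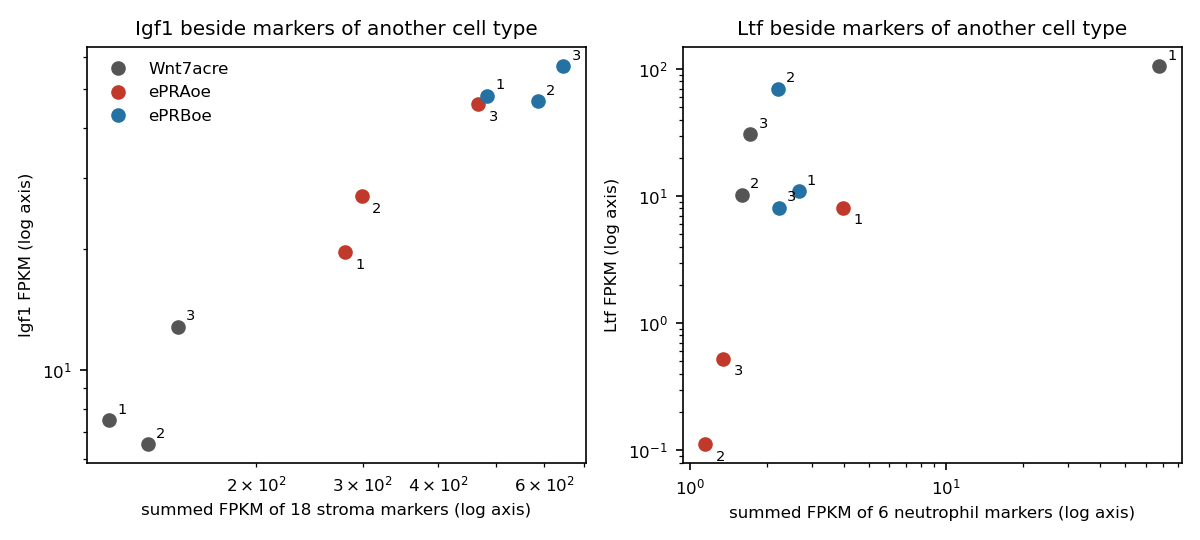
Left, Igf1 FPKM against the summed FPKM of 18 stroma markers, and right, Ltf FPKM against the summed FPKM of 6 neutrophil markers, per library (log axes, numbers give the replicate). Igf1 and the stroma sum are both lowest in Wnt7acre, and Wnt7acre replicate 1 stands apart on the right with 67.9 FPKM of neutrophil markers and 106 FPKM of Ltf.

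Greb1 (ENSMUSG00000036523.16; mm10 chr12:16670615-16800886, minus strand) encodes a cofactor that estrogen receptor alpha induces and binds. It read 0.653, 0.442 and 3.77 FPKM in Wnt7acre, 0.267, 4.66 and 2.61 in ePRAoe and 2, 7.23 and 1.14 in ePRBoe. All 3 genotypes overlapped, and libraries of 1 genotype differed by 6.34-fold to 17.4-fold. The log2 difference was 0.40 for ePRAoe (interval -0.81 to 1.6) and -0.27 for ePRBoe (interval -1.75 to 1.2) against Wnt7acre. ePRBoe differed from ePRAoe by -0.67, with an interval of -2.14 to 0.81. Greb1 was the lowest of the 9 genes in each genotype by its mean.

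Myc (ENSMUSG00000022346.15; mm10 chr15:61985391-61990374, plus strand) encodes a transcription factor that drives ribosome production and division and is an early response gene of estrogen. It read 44.5, 167 and 94.1 FPKM in Wnt7acre, 20.7, 15.1 and 34.3 in ePRAoe and 37.3, 25.6 and 35.3 in ePRBoe. All libraries of both overexpressing genotypes lay below the lowest Wnt7acre library, and the 2 overlapped each other. Myc fell in ePRAoe by 1.96 (SE 0.28, adjusted p = 0.00533), or 3.9-fold, and remained called without any 1 library. ePRBoe differed from Wnt7acre by -1.21 (SE 0.35), or 2.32-fold, without passing (adjusted p = 0.0721). Myc did pass there with median-of-ratios scaling (given above) and when replicate 1 of Wnt7acre (-1.43, adjusted p = 0.0117) or of ePRAoe (-1.43, 0.0113) was dropped, and the value was -0.61 (0.538) without replicate 3 of Wnt7acre. ePRBoe differed from ePRAoe by 0.75, with an interval of -0.05 to 1.55.

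Within the sequencing runs, Lcn2, Ltf, C3, Muc4, Guca2b and Myc were lower and Igf1 was higher in ePRAoe than in Wnt7acre in each of the 3 pairs of libraries. The largest within-run difference was that of Ltf in run 1, -4.84, and Guca2b gave -3.5, -3.07 and -4.53. Igf1 gave 1.02, 2.64 and 1.28. Greb1 gave 0.24, 1.33 and -0.38, so it kept no sign, as Padi2 did not. In run 1 ePRBoe averaged above the ePRAoe library for each gene except Greb1 (-0.59), by 0.45 for Muc4 to 4.16 for Ltf.

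**Figure D4:**
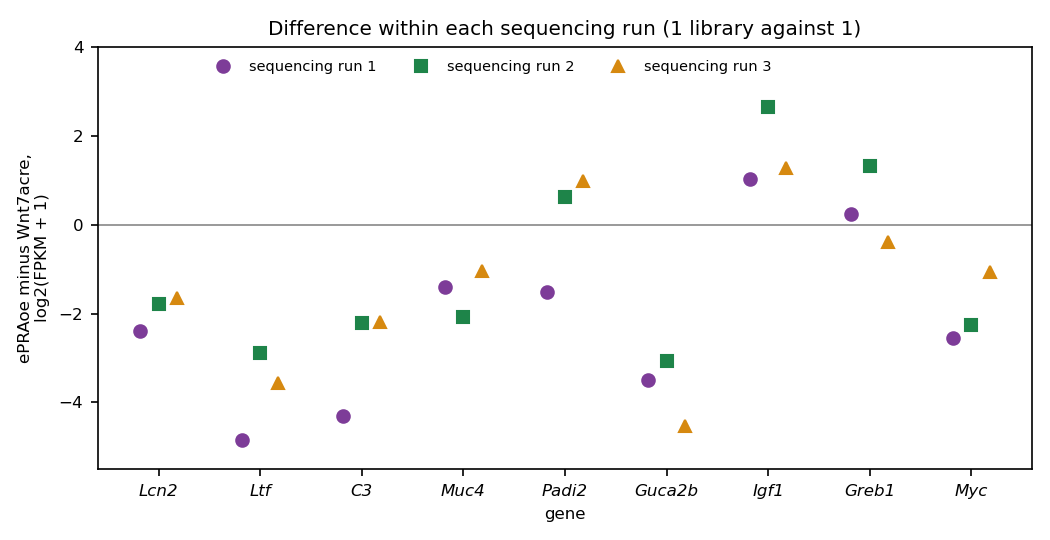
Difference of ePRAoe from Wnt7acre in log2(FPKM + 1) for each gene within each of the 3 sequencing runs, 1 library against 1 library. The 3 points of Lcn2, Ltf, C3, Muc4, Guca2b and Myc lie below 0 and those of Igf1 above it, while those of Padi2 and Greb1 lie on both sides.

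The order of the levels differed between genotypes. In Wnt7acre the means ran from C3 (176 ± 37.8 FPKM, SD, n = 3) through Guca2b (108 ± 56.7), Myc (102 ± 61.6), Lcn2 (89.4 ± 39.6) and Ltf (49.1 ± 50.6) to Muc4 (11.6 ± 4.62), Igf1 (8.95 ± 3.41), Padi2 (5.8 ± 4.96) and Greb1 (1.62 ± 1.87). C3, Guca2b, Myc and Lcn2 each stood above at least 96.3% of all genes there. In ePRAoe Igf1 came first at 30.8 ± 13.5 FPKM, before C3 (27.7 ± 18.9), Lcn2 (25 ± 15.6) and Myc (23.3 ± 9.86), and the ranges of these 4 overlapped. Padi2 (9.82 ± 12.4), Guca2b (8.7 ± 8.71), Muc4 (3.3 ± 0.811), Ltf (2.91 ± 4.5) and Greb1 (2.51 ± 2.2) followed. In ePRBoe C3 (81.6 ± 55.5) and Lcn2 (76.2 ± 29.2) were again highest, and Igf1 (50.5 ± 5.62) followed them. Guca2b (35.9 ± 3.92), Myc (32.8 ± 6.25), Ltf (29.8 ± 35), Padi2 (14.9 ± 3.36), Muc4 (3.85 ± 0.933) and Greb1 (3.46 ± 3.3) came next. The libraries of neighbours in these orders overlapped, except in ePRBoe for Igf1 and Guca2b and for Padi2 and Muc4.

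Several of the genes varied between libraries of 1 genotype more than most genes do. The SD of log2(FPKM + 1) of Ltf was 1.63, 1.64 and 1.61 in Wnt7acre, ePRAoe and ePRBoe, higher than in 99.7%, 99.4% and 99.9% of tested genes, where the median SD was 0.24, 0.27 and 0.16. Greb1 stood above 97.3%, 97.8% and 99.1%, and Lcn2 above 94.9%, 98.1% and 96.6%. Igf1 and Guca2b were near the median in ePRBoe, with an SD of 0.15 each. The library with the lowest Lcn2, Ltf, C3, Muc4, Padi2 and Myc in ePRAoe was replicate 2 each time. For Guca2b, replicates 1 and 2 of ePRAoe were nearly equal (3.68 and 3.67 FPKM).

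Of the other genes that estrogen is known to induce, 14 of 16 listed could be tested; 3 rose and 2 fell in ePRAoe, 2 rose and 1 fell in ePRBoe, and 0 differed between the isoforms (7 at an unadjusted limma p under 0.05). Wnt7b, a WNT ligand of the epithelium, fell from 108 ± 66.7 FPKM (SD, n = 3) to 5.18 ± 4.05 in ePRAoe and 11 ± 5.69 in ePRBoe. Its log2 differences were -4.12 (adjusted p = 0.0017) and -3 (0.00976, lost without Wnt7acre replicate 3 at 0.126). Cebpb, a transcription factor of the epithelial and stromal response, fell in ePRAoe by 1.14 (adjusted p = 0.00834). Fos, an early response gene, rose there by 2.79 (adjusted p = 0.0119), at 20.4, 125 and 16.5 FPKM against 4.31 ± 1.15 (SD, n = 3) in Wnt7acre; without ePRAoe replicate 2, the highest library, the value was 1.87. Sprr2f, a small proline-rich protein, rose in both genotypes, by 1.61 in ePRAoe (adjusted p = 0.0254) and by 3.54 in ePRBoe (0.00716, lost without Wnt7acre replicate 3 at 0.0562 and without the run term at 0.0513). The stress gene Gadd45g also rose in both, by 1.76 (adjusted p = 0.0159) and 2.76 (0.0117). The ePRAoe values of Sprr2f and Gadd45g were named after they were seen and were not recomputed under the alternatives. Dropping replicate 3 of Wnt7acre (0.0623), replicate 2 of ePRAoe (0.055) or the run term (0.0793) ended the Gadd45g call in ePRBoe. Of 8 tested receptors and coregulators of estrogen action, 1 rose in ePRAoe and in ePRBoe. That was Nrip1, a corepressor, by 0.90 (adjusted p = 0.00827) and 0.86 (0.0287), the latter not called when replicate 3 of Wnt7acre (0.156), replicate 2 of ePRAoe (0.0993) or any of the ePRBoe replicates 1 (0.071), 2 (0.0763) and 3 (0.0911) was dropped. Esr1, the gene of estrogen receptor alpha, which was named after its values were seen, read 41.5 ± 1.82 FPKM in Wnt7acre, 31.4 ± 4.91 in ePRAoe and 33.7 ± 3.97 in ePRBoe (adjusted p = 0.0958 and 0.464).

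Around Igf1, 9 of 14 listed pathway genes were tested; 2 rose and 3 fell in ePRAoe, 4 rose and 1 fell in ePRBoe, and 0 differed between the isoforms (6 at an unadjusted p under 0.05). Igfbp3, which binds IGF1 in the extracellular space, read 425, 1430 and 1020 FPKM in Wnt7acre, 31.4, 62.3 and 109 in ePRAoe and 123, 83.7 and 141 in ePRBoe. It fell by 3.81 (SE 0.21, adjusted p = 0.00082) and 3.05 (SE 0.26, adjusted p = 0.00281), both held without any 1 library. Igfbp4 and Igfbp5, binding proteins of the same family, rose in ePRAoe by 1.32 (adjusted p = 0.0137) and 1.25 (0.0138), and in ePRBoe by 2.52 (0.00657) and 2.47 (0.00603). The Igfbp5 call in ePRAoe ended when replicate 2 or 3 of Wnt7acre (0.0762 and 0.083) or of ePRAoe (0.0847 and 0.0769) was dropped, or the run term (0.155), and that in ePRBoe without replicate 3 of Wnt7acre (0.0768). Igfbp4 and Igfbp5 rose beside the stroma sums given above, whose part in this was not tested.

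Around Lcn2, Ltf and C3, 16 of 20 complement genes were tested; 2 rose and 5 fell in ePRAoe, 3 rose and 1 fell in ePRBoe, and 2 were higher in ePRBoe than in ePRAoe. Cd55, a membrane inhibitor of complement, fell in ePRAoe by 2.62 (adjusted p = 0.00696, 0.0519 without replicate 2 of Wnt7acre and 0.0511 without replicate 3 of ePRAoe). It read 210, 274 and 263 FPKM in Wnt7acre, and in ePRBoe it also lay lower, at 62, 53.9 and 39.7 FPKM. C1ra and C1s1, proteases of the classical pathway, each rose by 1.93 in ePRBoe (adjusted p = 0.00704 and 0.00785). They were also the 2 that rose in ePRAoe, by 0.73 (adjusted p = 0.0448) and 1.07 (0.0145). These ePRAoe values were named after they were seen and were not recomputed under the alternatives. Both genes rose beside the stroma sums given above, whose part in this was not tested. C1qa and C1qc, which macrophages make, were higher in ePRBoe than in ePRAoe by 2.12 (adjusted p = 0.0369) and 1.67 (0.0283), and both calls were lost without the run term (0.116 and 0.0827) and without any 1 of 6 libraries. With replicates 2 and 3 of Wnt7acre dropped in turn, the adjusted p was 0.0583 and 0.0614 for C1qa and 0.0506 and 0.0596 for C1qc. With replicates 2 and 3 of ePRAoe dropped it was 0.5 and 0.0594 for C1qa and 0.428 and 0.0518 for C1qc. With replicates 1 and 2 of ePRBoe dropped it was 0.149 and 0.127 for C1qa and 0.134 and 0.113 for C1qc. C1qc fell in ePRAoe against Wnt7acre by 0.91 (adjusted p = 0.00981), which did not pass without replicate 2 of Wnt7acre (0.0563) or replicate 3 of ePRAoe (0.0545), nor without the run term (0.0795). The 11 macrophage and monocyte markers, a list that also holds C1qa and C1qc, summed to 117 to 314 FPKM (Wnt7acre), 115 to 184 (ePRAoe) and 234 to 271 (ePRBoe), and their part in these values was not tested.

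Of 11 tested antimicrobial and iron-binding genes of epithelia, 1 rose and 3 fell in ePRAoe, 3 rose and 2 fell in ePRBoe, and 0 differed between the isoforms (4 at an unadjusted p under 0.05). Tfrc, the transferrin receptor that takes up iron, read 12.6, 58.7 and 37.4 FPKM in Wnt7acre, 3.06, 5.43 and 7.68 in ePRAoe and 9.77, 7.91 and 5.14 in ePRBoe. It fell by 2.37 (adjusted p = 0.00266) and 2.09 (0.0117, lost without Wnt7acre replicate 3 at 0.137). Fth1, the heavy chain of the iron store ferritin, fell in ePRAoe by 1.31 (adjusted p = 0.00378), from 562 ± 78 to 225 ± 28.5 FPKM (SD, n = 3). In ePRBoe it read 276, 217 and 286 FPKM, also below every Wnt7acre library. Lrp2, a receptor that takes up lipocalin 2 and other ligands, rose in ePRAoe by 1.15 (adjusted p = 0.0063) but not without the run term (adjusted p = 0.238). Slc22a17, a lipocalin 2 receptor, and Lyz1, a lysozyme, rose in ePRBoe by 1.40 (adjusted p = 0.011) and 2.8 (0.0102). The Slc22a17 call was lost without Wnt7acre replicate 3 (0.0706).

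Around Muc4, Guca2b and Padi2 few partners were tested. Muc20, a small membrane mucin, read 3.35, 7.79 and 4.9 FPKM in Wnt7acre and 0.284, 0.035 and 0.87 in ePRAoe, and fell by 2.17 (adjusted p = 0.00243). Erbb3, the receptor that pairs with ERBB2, fell in ePRAoe by 0.93 (adjusted p = 0.00481). These were 2 of 3 tested mucins and partners lower in ePRAoe, with 0 of 3 called in ePRBoe against Wnt7acre (1 at an unadjusted p under 0.05). Guca2a, the gene of guanylin, lies in the same hormone family as Guca2b and was listed at 0 in 2 ePRAoe libraries and at 0.543 FPKM in the other, against 3.26, 9.77 and 1.22 in Wnt7acre. It fell by 2.02 (adjusted p = 0.0201), which did not pass without replicate 2 of Wnt7acre (0.116) or replicate 3 of ePRAoe (0.113). Gucy2c, the receptor of both peptides, was at 0.019 to 2.63 FPKM in all libraries and did not pass in ePRAoe (1, adjusted p = 0.126). Padi4, the other tested deiminase, rose in ePRAoe by 1.01 (adjusted p = 0.029), a call lost without any 1 of the 6 Wnt7acre and ePRAoe libraries. Leaving out either library of a run gave the same difference, so these losses are not independent of each other. Without replicates 1, 2 and 3 in turn the adjusted p was 0.0729, 0.0909 and 0.112 for Wnt7acre and 0.074, 0.112 and 0.0908 for ePRAoe.

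Around Myc, 9 of 9 listed members of its network were tested; 1 rose and 2 fell in ePRAoe, 1 rose and 1 fell in ePRBoe, and 0 differed between the isoforms (3 at an unadjusted p under 0.05). Mycn, a close relative of Myc, read 16.3, 31.6 and 17.9 FPKM in Wnt7acre, 2.49, 1.49 and 4.13 in ePRAoe and 10.7, 3.78 and 3.84 in ePRBoe. It fell in ePRAoe by 2.63 (SE 0.35, adjusted p = 0.00439), held without any 1 library. Mxd1, which competes with MYC for MAX, fell in ePRAoe by 0.98 (adjusted p = 0.0109) and in ePRBoe by 1.02 (0.0294). The first Mxd1 call ended when replicate 2 or 3 of Wnt7acre (0.0579 and 0.058) or of ePRAoe (0.0565 and 0.0547) was dropped. The second ended without replicate 3 of Wnt7acre (0.177), replicate 2 of ePRAoe (0.0988) or replicate 1, 2 or 3 of ePRBoe (0.0596, 0.093 and 0.0879). Mycl rose in ePRAoe by 1.08 (adjusted p = 0.041), a call lost without any 1 of 7 libraries and without the run term (0.0791). Mxd3 rose in ePRBoe by 1.41 (adjusted p = 0.0232), from a mean of 0.371 FPKM in Wnt7acre to 1.7. That call was lost without any 1 of 5 libraries and without the run term (0.0556). Of 11 tested target genes of MYC 1 fell in ePRAoe, Nop56, a nucleolar protein, by 0.73 (adjusted p = 0.0312). It was not called when replicate 2 or 3 of Wnt7acre (0.118 and 0.142) or of ePRAoe (0.142 and 0.117), or replicate 3 of ePRBoe (0.0555), was dropped, nor without the run term (0.0967). In ePRBoe 0 of 11 were called against Wnt7acre (3 at an unadjusted p under 0.05).

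The genes most alike in pattern were sought among 8217 genes by the mean absolute difference of gene-centred log2(FPKM + 1) over the 9 libraries, as a description with no test. Nid1 and Fstl1 were closest to Igf1, at 0.12 and 0.15. Nid1, a basement membrane protein, read 9.59 to 16.1 FPKM (Wnt7acre), 26.8 to 55.9 (ePRAoe) and 58 to 67.8 (ePRBoe). Vwa2 and Nin were closest to Muc4, both at 0.12, and Fam213a and Irgq to Myc, both at 0.21. For Lcn2 they were Entpd3 (0.36) and Sp110 (0.42), for C3 Ly6a (0.37) and Arnt2 (0.39), and for Guca2b Cda (0.46) and Cldn10 (0.51). Cda, cytidine deaminase, read 66.7, 136 and 72.8 FPKM in Wnt7acre, 1.22, 1.41 and 17.6 in ePRAoe and 24.8, 11.2 and 14.8 in ePRBoe. Padi2 was nearest to Serpinf1 (0.47) and Myl6b (0.51), and Greb1 to Hyal1 (0.44) and Mir6405 (0.45). Ltf had no near neighbour, with Ovgp1 at 1.08 and Basp1 at 1.09. Among the 9 genes themselves Muc4 and Myc were closest (0.45), then Lcn2 and C3 (0.61), and Ltf and Igf1 were farthest apart (2.27).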

How the data were processed

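RNA of 9 libraries was sequenced, 3 for each of Wnt7acre, ePRAoe and ePRBoe. The authors deposited 1 table of FPKM per gene symbol, per the file headers. The submitters' processing notes name STAR 2.5.2b, featureCounts 1.5.0-p1, edgeR 3.28.0, limma 3.42.2 and the build mm10. The annotation, strand setting and gene lengths were not given in the sources used. Depth is not stated. Of 860 low genes (under 0.6 FPKM) 37.9% lay on whole steps (tolerance 0.0006 FPKM). Each step was shared by the libraries of a gene, so it implied a common figure of about 11.9 M reads. The quartiles, 9.06 and 13.1 M, are over 317 genes and not over libraries. The depth of a single library was not estimated. Rows of 6 of the 9 genes stand out of the table's alphabetical order, as do 4239 rows in all.

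Tests covered 12347 genes that reached 1 FPKM in 3 or more libraries, on log2(FPKM + 1), a pseudocount of 1. limma 3.58.1 in R 4.3.3 fitted genotype and sequencing run over all 9 libraries (4 residual degrees of freedom), two-sided, with a threshold of 0.05 on the adjusted p. Folds are on that scale. Of 12089 genes simulated for ePRAoe against Wnt7acre, changed ones were recovered in 90% (log2 change of 1) and 100% (2). The simulation added no run effect, changed no genes of low level and used a spread smoothed over genes of similar level. Recovery at a spread between libraries as wide as that of Ltf, Greb1 or Lcn2 was not tested. Nor was it tested at the spread that Padi2, C3, Guca2b and Myc had in some genotypes. Positions came from GENCODE M21. The members and all gene lists were chosen with earlier results of these data known. Named are the 9 genes, up to 3 called genes per pathway list with the largest moderated t (the 2 highest in FPKM where fewer than 2 were called) and the 2 nearest genes in pattern. Not every gene the rule picks is reported here. Alternatives were pseudocounts, filters, scalings, the run term, a replicate block and leaving out each library.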

Additional observations from a re-analysis of the deposited data

Results flagged for a closer look

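The difference between the isoforms passed limma's test for 2 of the 9 genes, Lcn2 (2.84, adjusted p = 0.0381) and Guca2b (3.08, adjusted p = 0.0224), both higher in ePRBoe than in ePRAoe on the log2 scale. All 3 ePRBoe libraries lay above all 3 ePRAoe libraries for both genes, as for 16.8% of all tested genes. Against Wnt7acre, ePRAoe was lower for both genes, while ePRBoe gave 0.90 for Lcn2 and -0.62 for Guca2b, neither of them called. Lcn2 was not called with no filter, median-of-ratios scaling, quantile normalization or TPM (adjusted p = 0.0515 to 0.069), and neither gene was called without the run term (0.21 and 0.126). Neither passed without ePRAoe replicate 2, the one ePRAoe library in the run of the ePRBoe libraries (adjusted p = 0.524 and 0.428).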

How the results depend on the processing

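For the 9 genes, 209 of the values under another setting kept their direction and side of the threshold, 12 reversed, 14 lost and 5 gained a call; with 1 library left out the counts were 200, 12, 23 and 8. The other named genes gave 560, 3, 24 and 5, and 521, 11, 67 and 4. Genes called ranged, with 1 library left out, from 723 to 2705 in ePRAoe and 231 to 1604 in ePRBoe against Wnt7acre, and from 0 to 576 between the isoforms. The 0 came without ePRAoe replicate 2, ePRBoe replicate 1 or ePRBoe replicate 2, with at least 890 genes at an unadjusted limma p under 0.05. Called among the 9 genes were 4 to 7, 1 to 4 and 0 to 3. In ePRBoe against Wnt7acre 653 genes were called with a mean of at least 5 FPKM and 1786 without the run term, and 4 of the 9 genes (2 higher, 2 lower) with median-of-ratios scaling. Between the isoforms the counts were 19 genes without a filter, 22 with median-of-ratios scaling, 16 with quantile normalization and 7 without the run term. Of the 9 genes 1 (Guca2b) was called with no filter, median-of-ratios scaling, quantile normalization or TPM, and 0 without the run term. The higher share of ePRBoe calls was 56.9% with quantile normalization.

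In their deviations from the genotype means, same-numbered libraries correlated at -0.23 to 0.17 (2 of 9 pairs over 0.1) and others at -0.31 to 0.31 (5 of 18). Pairs from the same sequencing run correlated at -0.26 to 0.31. With so few libraries per genotype, these correlations cannot decide whether the numbers or the runs pair the libraries. With a replicate block in place of the run, 1113 genes were called in ePRAoe against Wnt7acre and 4 between the isoforms, with 0 of the 9 genes among them. In ePRAoe against Wnt7acre the block left Lcn2 (adjusted p = 0.0642), Ltf (0.0638), Nrip1 (0.0644), Igfbp5 (0.128), Lrp2 (0.144), Nop56 (0.127), Guca2a (0.0849), Mycl (0.0732) and Padi4 (0.0586) uncalled. In ePRBoe Padi2 was then not called (1.43, 0.177), and Muc4 (-1.34, 0.0232) and Erbb3 (-0.78, 0.0476) were called lower.

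Padi2 in ePRAoe against Wnt7acre was -0.32 and -0.09 with pseudocounts of 0.1 and 0.5, -0.13 as TPM and -0.44 to 0.80 without single libraries. Ltf in ePRBoe against Wnt7acre was 0.38, 0.02, 0.12 and -1.06 to 0.94 likewise. Without the run term and with the replicate block alike, Lcn2 (-0.20) and Greb1 (0.74) turned in ePRBoe against Wnt7acre, and Greb1 (0.34) and Nrip1 (0.09) between the isoforms. Mxi1 between the isoforms was -0.03 with median-of-ratios scaling. Without single libraries, Greb1 ran from -0.07 to 0.79 in ePRAoe and from -0.84 to 0.13 in ePRBoe, and C3 from -1.34 to 0.76, Erbb2 from -0.40 to 0.04 and Ldha from -0.47 to 0 in ePRBoe. Between the isoforms Igf1 ran from -0.07 to 0.87, Nrip1 from -0.11 to 0.05, Gucy2c from -0.37 to 0.19 and Muc1 from -0.10 to 2.26. None of these reversed values was called, and the cause was not tested. Leaving out 1 library of run 2 or 3 leaves its partner alone in the run, so that it adds nothing. For ePRAoe against Wnt7acre this also holds in run 1, since the ePRBoe libraries are in no other run. In that comparison, leaving out either library of a run thus gave the same difference, and such losses come in pairs. Without Wnt7acre replicate 3 the comparison of ePRBoe with Wnt7acre rests on ePRAoe replicate 2. Depth limits the lowest values, such as Ltf in ePRAoe.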

Other observations

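Markers of other cell types than those set beside the 9 genes above also differed between genotypes. The 9 natural killer and T cell markers summed to 15.8 to 31.5 FPKM (Wnt7acre), 20 to 35.1 (ePRAoe) and 52.8 to 81.5 (ePRBoe), and 4 of 8 tested rose in ePRBoe. The 10 endothelial markers summed to 15.7 to 23, 16.5 to 34.6 and 52.1 to 77.9 FPKM, with 2 of 7 tested higher in ePRBoe. The 7 smooth muscle markers summed to 11.7 to 21.5, 16.8 to 31.5 and 38.3 to 124 FPKM, with 1 of 4 tested higher in ePRBoe. Of the pan-leukocyte markers 2 of 6 fell in ePRAoe and 4 of 6 rose in ePRBoe. The 1 red blood cell marker with values read 0.154 to 1.84 FPKM over all libraries.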
